A study of Mus musculus with 12 samples.

Results

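Type I interferons bind a receptor made of *IFNAR1* and *IFNAR2* chains, whose genes lie close together on mouse chromosome 16 with *Il10rb*, the gene of a chain shared by the receptors for IL-10, IL-22 and type III interferons. The genes described here are *Ifnar1*, *Ifnar2* and *Il10rb* and the annotated unit *RP23-190G10.4*, which shares its strand and part of its span with *Ifnar2* and with *Il10rb*. They were selected by gene name, and they make up 4 of the 23022 genes listed for the series. The 3 receptor genes were taken for their place and family, whereas *RP23-190G10.4* was chosen by its difference in interferon-gamma (IFNγ) response between genotypes in these same libraries, so that difference is given only as a description.

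The 12 libraries came from B16-F10, a mouse melanoma line in which a Cas9-expressing clone had been transduced with guide RNAs. The control cells (NTC, written no template control in the sample labels and non-targeting control in the paper) and the *Mbnl1*/*Mbnl2* double knockout (DKO) cells were each left unstimulated or treated with 1 ng/mL IFNγ for 24 h, with 3 replicates in each of the 4 groups. All groups share the Cas9 background. The paper describes incomplete protein loss in its polyclonal DKO cells and does not state whether the sequenced cells were a clone. Nothing in the labels says that replicates were separate cultures, so the p-values measure the spread between these libraries, which may be technical.

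The 2 chains of the type I receptor signal through the kinases TYK2, bound to IFNAR1, and JAK1, bound to IFNAR2, whose targets include STAT2, which joins IRF9 and acts on genes with an interferon-stimulated response element. IL10RB also binds TYK2, and it pairs with IL10RA, IL22RA1 or IFNLR1 depending on the ligand. IFNγ uses another receptor, of IFNGR1 and IFNGR2, and *Ifngr2* is the next gene downstream in the same cluster.

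In GENCODE M21 (GRCm38) the 4 members span 134659 bases of the plus strand of chromosome 16. *Ifnar2* (ENSMUSG00000022971) lies at chr16:91372783-91405589, *Il10rb* (ENSMUSG00000022969) at chr16:91406164-91425834 and *Ifnar1* (ENSMUSG00000022967) at chr16:91485238-91507441. *RP23-190G10.4* (ENSMUSG00000093701, named *Gm21970* in that annotation) lies at chr16:91391721-91419451. Both of its transcripts are tagged as readthrough: *Gm21970-201* (884 bases, 6 exons) is annotated as protein coding and *Gm21970-202* (760 bases, 5 exons) as a target of nonsense-mediated decay. All 884 exonic bases of the unit are also exonic in a neighbour, 315 of them (35.6%) in *Ifnar2* and 569 (64.4%) in *Il10rb*. Both transcripts start with exon 6 of *Ifnar2-201* and leave *Ifnar2* after exon 7. *Gm21970-201* goes on at exon 2 of *Il10rb-201*, and *Gm21970-202* at its exon 3.

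**Figure D1:**
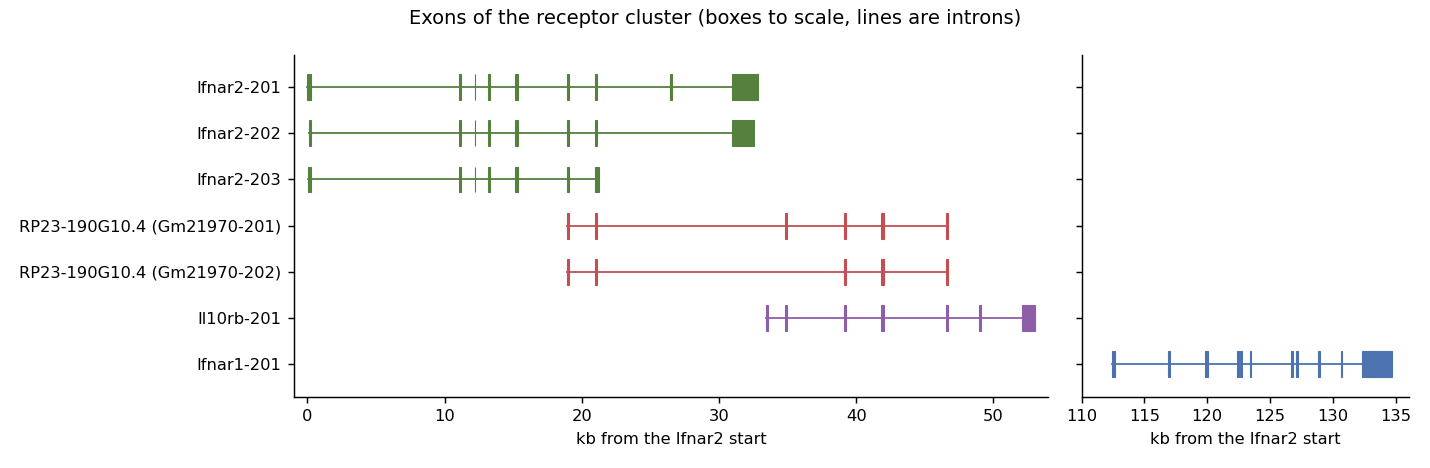
Exons (boxes, to scale) and introns (lines) of the transcripts of *Ifnar2*, *RP23-190G10.4*, *Il10rb* and *Ifnar1*, against distance in kb from the *Ifnar2* start, with the stretch between *Il10rb* and *Ifnar1* left out. Every exon of *RP23-190G10.4* lies under an exon of *Ifnar2* or *Il10rb*.

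Within this annotation, the sequence that sets the unit apart from its neighbours is therefore a splice junction, and the junctions are shown here because reads across them are what separate the units. In each line the last 30 bases of the upstream exon are in lower case and the first 30 bases of the downstream exon are in capitals (GENCODE M21 transcripts, plus strand). The junctions are exon 7 to exon 8 of *Ifnar2-201*, exon 2 to exon 3 of both readthrough transcripts, and exon 1 to exon 2 of *Il10rb-201*.
Ifnar2-201: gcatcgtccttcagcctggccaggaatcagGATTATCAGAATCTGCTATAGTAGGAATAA
Gm21970-201: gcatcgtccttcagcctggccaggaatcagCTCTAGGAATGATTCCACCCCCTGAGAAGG
Gm21970-202: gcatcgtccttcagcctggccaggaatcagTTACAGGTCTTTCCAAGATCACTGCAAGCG
Il10rb-201: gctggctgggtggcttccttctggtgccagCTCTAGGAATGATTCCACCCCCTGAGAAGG
The upstream 30 bases are the same in *Ifnar2-201* and both readthrough transcripts, and the downstream 30 bases are the same in *Gm21970-201* and *Il10rb-201*. Each readthrough junction occurred in 1 annotated transcript. The libraries were read from both ends over 50 bp, so a pair that lies in the exonic bases of the unit and crosses no such junction is shared with a neighbour, and the level given to *RP23-190G10.4* depends on how RSEM divided those pairs. Levels of the unit are uncertain in this sense, as is the part of each neighbour's level that could be exchanged with it. The unit itself had 6.09 to 14.5 TPM per 100 TPM of *Ifnar2* and 2.35 to 5.82 TPM per 100 TPM of *Il10rb*. The annotation merged by the authors is older than the one used for this map and may hold other transcripts.

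The expression values are TPM, a share of each library's transcripts corrected for their length; they keep no read depth, so the depth behind a value is unknown and precision was taken from the replicates. The listed genes of a DKO library summed to 805782 to 827191 TPM, and those of an NTC library to 844185 to 874612 TPM. *Mbnl1* RNA averaged 56.5 TPM in untreated NTC and 42.1 TPM in untreated DKO cells (log2 difference −0.41, SE 0.0489, adjusted p = 2.54e-05). *Mbnl2* was lower by less (−0.20, SE 0.0527, adjusted p = 0.00937). All 7 melanocyte markers examined (*Mitf*, *Sox10*, *Pmel*, *Dct*, *Tyrp1*, *Tyr* and *Mlana*) were detected in every library, and their sum ran from 11124 to 12414 TPM in DKO and from 16647 to 18643 TPM in NTC libraries. Of 10 markers of blood, endothelial, epithelial and fibroblast cells, 7 were listed at 0 throughout, among them *Ptprc*, *Cd3e*, *Cdh5*, *Epcam* and *Krt5*, and their sum ran from 0.765 to 1.99 TPM in NTC and from 2.31 to 2.67 TPM in DKO libraries. Of these, *Col1a1* was tested and was higher in DKO on the average of both treatments (0.54, adjusted p = 7.19e-05), where 24.8% of all tested genes were called higher. All 7 melanocyte markers were lower on that average (median −0.56, against −0.01 for all genes tested), where 28.4% were called lower. The part of these markers in the results below was not tested. In bulk libraries, fewer cells with a transcript and less of it per cell cannot be told apart.

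All 4 members were detected in all 12 libraries and passed the filter of at least 1 TPM in at least 3 libraries, as did 11663 genes in all. *Il10rb* had the highest level, between 83.1 and 102 TPM. *Ifnar1* and *Ifnar2* were at similar levels in untreated NTC cells (33.0 ± 0.718 and 34.4 ± 1.74 TPM; SD, n = 3). *RP23-190G10.4* was the lowest, between 2.11 and 5.14 TPM. Differences below are on the log2(TPM + 1) scale from a limma fit over all 12 libraries, with Benjamini-Hochberg adjusted p-values over all genes tested and a threshold of 0.05; for the unit, at a few TPM, this scale understates the ratio of TPM.

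**Figure D2:**
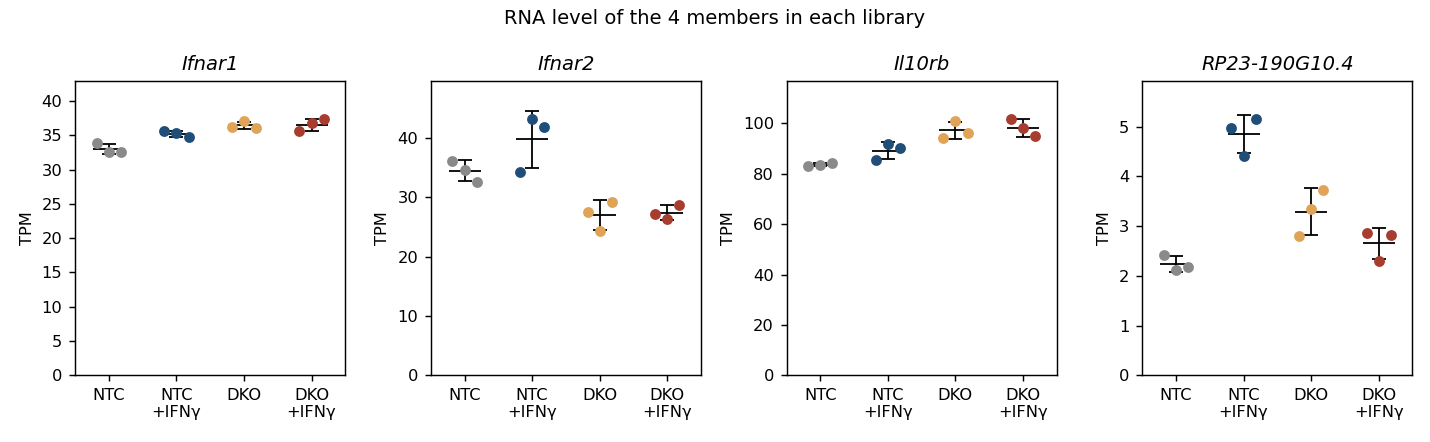
TPM of *Ifnar1*, *Ifnar2*, *Il10rb* and *RP23-190G10.4* in each of the 12 libraries (points, replicates 1 to 3 from left to right) with the mean and SD of each group of 3 (bars); each vertical axis starts at 0. *Ifnar2* is lower in every DKO library, *Il10rb* and *Ifnar1* are higher in every DKO library, and *RP23-190G10.4* is highest in IFNγ-treated NTC cells. For *Ifnar1*, the lowest DKO library (35.62 TPM) and the highest NTC library (35.55 TPM) lie close together.

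*Ifnar2*, which encodes the chain that binds JAK1, was lower in DKO cells at both treatments. Its TPM without IFNγ were 36.1, 34.7 and 32.6 in the NTC replicates, against 27.4, 24.4 and 29.3 in the DKO replicates. With IFNγ they were 34.2, 43.1 and 41.9 in NTC, against 27.1, 26.4 and 28.7 in DKO. Every DKO library was thus below every NTC library, and NTC replicate 1 with IFNγ was within the untreated NTC range. The difference between DKO and NTC was −0.34 without IFNγ (SE 0.0850, 95% confidence interval −0.53 to −0.16, adjusted p = 0.00662) and −0.51 with it (SE 0.0850, −0.70 to −0.33, adjusted p = 0.000342). Averaged over both treatments it was −0.43 (SE 0.0601, adjusted p = 4.91e-05), a ratio of 0.743 in TPM + 1. Genes called lower in DKO were common, at 19.4% of those tested without IFNγ, 23.9% with it and 28.4% on the average, and in 14.7% of tested genes all 6 DKO libraries lay below all 6 NTC libraries.

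*Il10rb*, the shared chain of the IL-10, IL-22 and type III interferon receptors, was higher in DKO cells. Its TPM without IFNγ were 83.1, 83.6 and 84.3 in the NTC replicates, against 94.4, 101 and 96.2 in the DKO replicates. With IFNγ they were 85.6, 91.8 and 90.4 in NTC, against 102, 98.1 and 94.8 in DKO. All 6 DKO libraries lay above all 6 NTC libraries. *Il10rb* rose by 0.21 in untreated DKO against NTC cells (SE 0.0432, 95% confidence interval 0.12 to 0.31, adjusted p = 0.00172) and by 0.14 in treated cells (SE 0.0432, 0.04 to 0.23, adjusted p = 0.0211). The average was 0.17 (SE 0.0305, adjusted p = 0.000307), a ratio of 1.13. Fits that left out NTC replicate 1 or DKO replicate 1 of the treated cells each gave 0.11 and lost the treated call, with adjusted p-values of 0.0852 and 0.0899. It was also lost when only the 6 treated libraries were fitted (0.14, adjusted p = 0.0654) or when the TPM of *RP23-190G10.4* were added to *Il10rb* (0.10, adjusted p = 0.0763). That sum takes in values on which the unit was chosen. After scaling all libraries to a common total, the treated difference was 0.22 (adjusted p = 0.00121). Genes called higher in DKO were 17.0% of those tested without IFNγ, 19.5% with it and 24.8% on the average, and 12.4% of tested genes had all 6 DKO libraries above all 6 NTC libraries.

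*Ifnar1*, which encodes the chain that binds TYK2, differed least between genotypes. Its TPM in NTC replicates were 33.9, 32.6 and 32.6 without IFNγ, then 35.6, 35.3 and 34.7 with it. In DKO replicates they were 36.2, 37.1 and 36.1 without IFNγ, then 35.6, 36.7 and 37.3 with it. All 6 DKO libraries lay above all 6 NTC libraries, as in 12.4% of tested genes. The lowest DKO and the highest NTC library, both treated, differed by less than 0.1 TPM. *Ifnar1* rose by 0.14 in untreated DKO against NTC cells (SE 0.0420, adjusted p = 0.0195), and the treated difference was 0.05 (SE 0.0420, 95% confidence interval −0.04 to 0.14, adjusted p = 0.324). Averaged over both treatments the difference was 0.10 (SE 0.0297, adjusted p = 0.0144), a ratio of 1.07. Of all tested genes, 17.0% were called higher in DKO without IFNγ and 24.8% on the average. Fits that left out NTC replicate 2, NTC replicate 3 or DKO replicate 2 of the untreated cells each gave 0.13 and lost the untreated call, with adjusted p-values of 0.0614, 0.0662 and 0.0685. After scaling all libraries to a common total, the treated difference was 0.14 (adjusted p = 0.0182) and the average was 0.16 (adjusted p = 0.000468).

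On the average of both treatments, the chains of the type I receptor therefore moved in opposite directions between genotypes. In treated cells, the difference of *Ifnar1* was 0.05 and did not pass (adjusted p = 0.324). *Ifnar2* and *Il10rb*, whose annotated ends lie next to each other, also moved in opposite directions. For each TPM of *Ifnar2* there were 2.43 ± 0.141 TPM of *Il10rb* in untreated NTC and 2.26 ± 0.205 in treated NTC cells (SD, n = 3). In DKO cells the ratio was 3.63 ± 0.460 without IFNγ and 3.59 ± 0.251 with it. The lowest DKO library (3.29) was above the highest NTC library (2.58). Because *Ifnar2* was lower and *Il10rb* higher in every DKO library, the ratio had to separate the genotypes and adds no further evidence. When *Ifnar2*, *Il10rb* and *RP23-190G10.4* were summed to 1 unit, the average genotype difference was 0.01 (adjusted p = 0.777).

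Next, treated and untreated cells were compared within each genotype, to ask whether IFNγ changed the type I receptor genes. None of the 3 receptor genes passed the threshold in either genotype. In NTC cells the differences were 0.09 for *Ifnar1* (95% confidence interval −0.00197 to 0.18, adjusted p = 0.165), 0.19 for *Ifnar2* (0.01 to 0.38, adjusted p = 0.135) and 0.09 for *Il10rb* (−0.0015 to 0.18, adjusted p = 0.163). All 3 treated NTC libraries were above all 3 untreated NTC libraries for *Ifnar1* and *Il10rb*, as for 21.8% of tested genes, and not for *Ifnar2*. In DKO cells the differences were 0.00338, 0.02 and 0.01, with confidence intervals of −0.09 to 0.09, −0.16 to 0.21 and −0.08 to 0.11 (adjusted p = 0.995, 0.966 and 0.957). For comparison, 7.31% of tested genes were called higher and 4.78% lower with IFNγ in NTC cells, and 0.677% higher and 0.103% lower in DKO cells. The share of higher calls depended on scaling in NTC cells, at 60.5% of calls as deposited and 45.1% after scaling to a common total; among DKO against NTC calls it was 46.6% as deposited and 63.1% at the common total for the average of both treatments. For *Ifnar2*, leaving out treated NTC replicate 1, the lowest of its group, gave a difference of 0.30 in NTC cells (adjusted p = 0.0263). Adding the TPM of *RP23-190G10.4* to *Ifnar2* gave 0.27. That sum takes in values on which the unit was chosen, so it is given without a test.

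**Figure D3:**
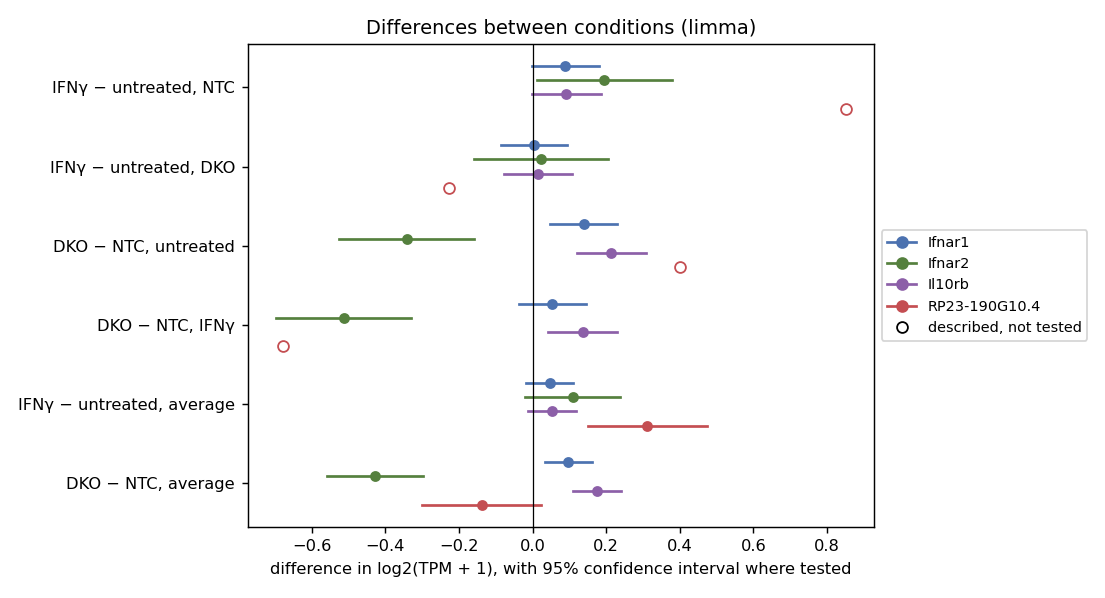
Differences in log2(TPM + 1) of each member in 6 comparisons; filled points carry a 95% confidence interval from limma, and open points are the values of *RP23-190G10.4* that are described without a test. No receptor gene passed the threshold on adjusted p with IFNγ, with *Ifnar2* in NTC cells at 0.19 (interval 0.01 to 0.38). Between genotypes, *Ifnar2* lies below 0 and *Il10rb* above it.

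*RP23-190G10.4*, the readthrough unit, went in the same direction as *Ifnar2* in 2 of 4 comparisons, and as *Il10rb* in 2 of 4. This is a description, since the unit was chosen on its response in these libraries. Its TPM in NTC replicates were 2.42, 2.11 and 2.18 without IFNγ, then 4.98, 4.41 and 5.14 with it. In DKO replicates they were 2.79, 3.34 and 3.72 without IFNγ, then 2.85, 2.30 and 2.82 with it. All 3 treated NTC libraries were above all 3 untreated NTC libraries, as for 21.8% of tested genes. The treated and untreated DKO libraries overlapped, with 2 of 3 treated libraries above the lowest untreated one.

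The mean of the unit was 2.17 times higher with IFNγ in NTC cells (log2 difference 0.85, SE 0.106) and 0.808 times its untreated level in DKO cells (−0.23, SE 0.106). DKO cells held 1.47 times the NTC mean without IFNγ (0.40) and 0.549 times the NTC mean with it (−0.68). The difference between the responses, on which the unit was chosen, was −1.08 (SE 0.149). In that comparison 4 of 11663 genes were called in either direction (0.0343%), and nothing is read from that share for the unit. The same difference was −0.09 for *Ifnar1*, −0.17 for *Ifnar2* and −0.08 for *Il10rb*, which share exons or position with the unit and are likewise given without a test. No test is attached to these values of the unit.

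The averages over both treatments and over both genotypes are orthogonal to the contrast that chose the unit, and they were tested. However, they share its estimate of the spread, and choosing the unit may have favoured a small spread. Adjusted p-values of the unit may therefore be too low here. Averaged over genotypes, *RP23-190G10.4* was higher with IFNγ by 0.31 (SE 0.0747, 95% confidence interval 0.15 to 0.47, adjusted p = 0.0224), the mean of a positive value in NTC and a negative value in DKO cells. The receptor genes did not pass this test, with values of 0.05 for *Ifnar1* (adjusted p = 0.325), 0.11 for *Ifnar2* (adjusted p = 0.249) and 0.05 for *Il10rb* (adjusted p = 0.270). On this average 6.54% of tested genes were called higher and 3.7% lower. The call of the unit was lost in 6 of 12 fits without a library: untreated NTC replicate 2 (0.30, adjusted p = 0.0542) or 3 (0.31, 0.0526), treated NTC replicate 3 (0.29, 0.0566), untreated DKO replicate 1 (0.27, 0.0599), and treated DKO replicate 1 (0.29, 0.0566) or 3 (0.30, 0.0528). Averaged over treatments, the genotype difference of the unit was −0.14 (SE 0.0747, 95% confidence interval −0.30 to 0.02, adjusted p = 0.135).

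The unit was then set beside its neighbours within each library, to describe whether it follows them. Per 100 TPM of *Ifnar2*, the unit had 6.50 ± 0.353 TPM in untreated NTC, 12.4 ± 2.16 in treated NTC, 12.2 ± 1.84 in untreated DKO and 9.69 ± 0.907 in treated DKO cells (SD, n = 3). Every other library was above the highest untreated NTC library (6.72), and the other 3 groups overlapped in part. Per 100 TPM of *Il10rb*, it had 2.68 ± 0.210, 5.44 ± 0.551, 3.38 ± 0.461 and 2.71 ± 0.324 TPM in the same order. On that ratio the treated NTC libraries (4.81 to 5.82) were above all others, and the untreated NTC and treated DKO libraries overlapped. Both ratios hold values on which the unit was chosen, so these separations are a description. Of the summed TPM of the unit, *Ifnar2* and *Il10rb*, the unit took between 1.75% and 3.99%.

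**Figure D4:**
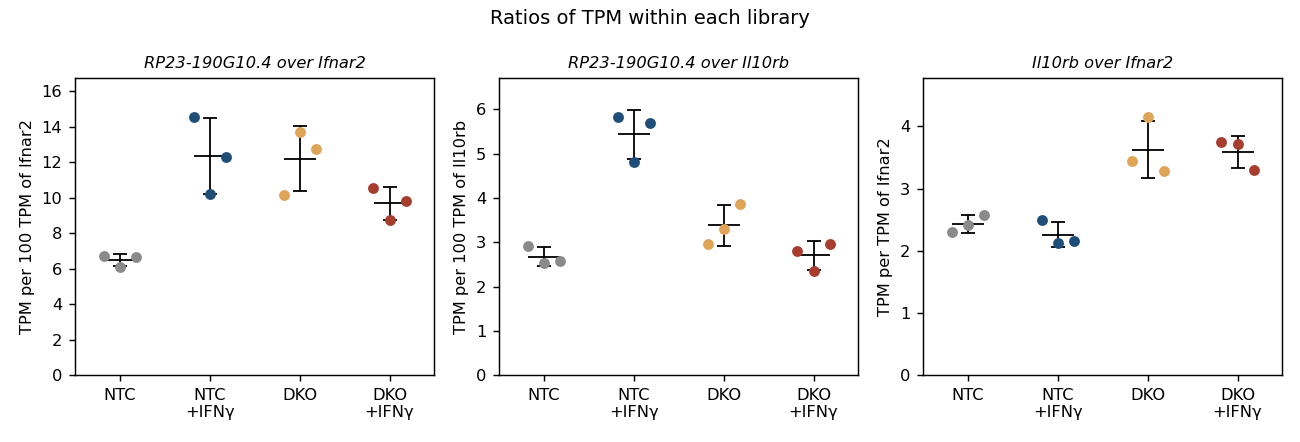
Ratios of TPM within each of the 12 libraries (points) with the mean and SD of each group of 3 (bars): *RP23-190G10.4* per 100 TPM of *Ifnar2*, *RP23-190G10.4* per 100 TPM of *Il10rb*, and *Il10rb* per TPM of *Ifnar2*; the axes start at 0. The unit has its highest ratio to *Il10rb* in treated NTC cells. *Il10rb* over *Ifnar2* is higher in all DKO libraries, which follows from the levels of both genes.

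In TPM, the difference of the unit with IFNγ in NTC cells was 2.61, and *Ifnar2* (5.28) and *Il10rb* (5.59) were higher in mean level as well. In DKO cells the difference of the unit was −0.63 TPM, against 0.382 for *Ifnar2* and 0.959 for *Il10rb*. Between untreated genotypes the unit was on the side of *Il10rb* (1.05 and 13.6 TPM higher in DKO) and the difference of *Ifnar2* was −7.43 TPM. Between treated genotypes it was on the side of *Ifnar2* (differences of −2.19 and −12.3 TPM in DKO), with *Il10rb* 8.93 TPM higher.

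Across the 12 libraries, the tested genes whose log2(TPM + 1) was most like that of *Ifnar2* were *Ccni* (Pearson r = 0.969), *Armc8* (0.968) and *Lactb2* (0.963). For *Il10rb* they were *Pcgf3* (0.965), *Ftsj3* (0.964) and *Gjc1* (0.958), and for *Ifnar1* they were *Ube2r2* (0.954), *Twsg1* (0.949) and *Mcee* (0.946). For *RP23-190G10.4* they were *Snx14* (0.914), *Psma1* (0.910) and *Depdc1a* (0.909), each with its highest mean in treated NTC cells. These are the highest of 11662 values for each member over libraries that share 4 groups, and they are given as a description. Among the members themselves, *Ifnar1* and *Il10rb* had r = 0.813, *Ifnar2* had −0.562 with *Ifnar1* and −0.662 with *Il10rb*, and the unit had 0.44 with *Ifnar2* and 0.101 with *Il10rb*.

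The other genes of the pathway were taken from fixed lists. Of 23 ligand genes, those of the type I and type III interferons, IL-10 and IL-22, 18 were listed at 0 in every library, among them *Ifnb1*, *Il10*, *Il22*, *Ifnl2* and *Ifnl3*, and the others reached at most 0.645 TPM (*Ifne*). None could be tested. The partner chains of *Il10rb* were also low: *Il10ra* was listed at 0 throughout, *Ifnlr1* reached 0.557 TPM and *Il22ra1* reached 0.0993 TPM.

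Of the 9 other genes of the class II cytokine receptor family, 4 were tested, and 3 of them rose in DKO on the average of both treatments, none fell and 1 did not pass, where 24.8% of all tested genes were called higher; the median difference was 0.24, against −0.01 for all genes tested. *Ifngr2*, the signalling chain of the IFNγ receptor, went from 27.1 ± 0.216 TPM in untreated NTC to 41.8 ± 2.44 TPM in untreated DKO cells (SD, n = 3; log2 difference 0.60, SE 0.0688, adjusted p = 1.88e-05). With IFNγ it was 29.0 ± 2.92 TPM in NTC and 39.7 ± 2.07 TPM in DKO cells (0.44, adjusted p = 0.000222). *F3* (0.12, adjusted p = 0.0359) and *Il20rb* (0.36, adjusted p = 0.0107), at about 1 to 2 TPM, passed on the average alone. *Ifngr1*, the chain that binds IFNγ, had a difference of 0.02 (adjusted p = 0.786). None of the 4 passed the threshold with IFNγ in either genotype.

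Of 5 kinases and transcription factors below the receptors, 3 rose with IFNγ in NTC and 2 in DKO cells, where 7.31% and 0.677% of all tested genes were called higher, and none fell; the medians were 0.36 and 0.22, against 0.02 and 0.01 for all genes tested. *Irf9*, the DNA-binding partner of STAT2, rose by 1.29 in NTC cells (adjusted p = 1.59e-07), while DKO cells showed a rise of 0.96 (adjusted p = 5.43e-06). *Stat3*, the main factor of IL-10 and IL-22 signalling, rose by 0.39 (adjusted p = 0.000168) and 0.32 (adjusted p = 0.0017). *Stat2* rose by 0.36 in NTC cells (adjusted p = 0.0309) and had a difference of 0.22 in DKO cells (adjusted p = 0.473). The kinases did not pass with IFNγ: *Jak1* had differences of 0.08 in NTC (adjusted p = 0.223) and 0.02 in DKO (adjusted p = 0.95), and *Tyk2* −0.03 (adjusted p = 0.807) and −0.02 (adjusted p = 0.967).

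Between genotypes, *Tyk2* was higher in DKO on the average of both treatments by 0.15 (adjusted p = 0.0213) and *Jak1* had a difference of 0.05 (adjusted p = 0.16). *Irf9* was higher in untreated DKO cells (0.26, adjusted p = 0.0197). Of 8 negative regulators, 6 were tested, and none passed with IFNγ in either genotype. On the genotype average, 1 was called higher and 1 lower in DKO. Over all tested genes, 24.8% were called higher and 28.4% lower on that average. *Btrc*, which encodes a ubiquitin ligase subunit that acts on IFNAR1, was higher in DKO on the average (0.18, adjusted p = 0.0062) and without IFNγ (0.19, adjusted p = 0.0406). *Ptpn2*, which encodes a phosphatase that acts on JAK1, was lower on the average (−0.10, adjusted p = 0.0239) and with IFNγ (−0.17, adjusted p = 0.0122). *Usp18*, which encodes an inhibitor that binds IFNAR2, and *Socs1* stayed under the filter, at most at 1.28 and 1.09 TPM.

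The genome neighbours were examined next, since the receptor genes lie in a dense stretch of genes. Within 500 kb of the span of the 4 members, 15 other listed genes were found, of which 12 were tested. None passed with IFNγ in either genotype. On the average of both treatments, 5 were higher in DKO, 3 were lower and 4 did not pass, where 24.8% of all tested genes were called higher and 28.4% lower, and the median difference was 0.005, against −0.01 for all genes tested. Downstream of *Ifnar1*, *Ifngr2* (0.52, adjusted p = 1.24e-06), *Tmem50b* (0.46, adjusted p = 2.41e-05), *Gart*, which encodes an enzyme of purine synthesis (0.38, adjusted p = 7.09e-07), and *Donson*, which encodes a replication factor (0.34, adjusted p = 0.000141), were higher. *Cryzl1* had the largest drop of the tested neighbours, at 110.6 TPM in the mean of 6 NTC libraries and 64.3 TPM in that of 6 DKO libraries (−0.77, SE 0.0489, adjusted p = 3.59e-08). *Gcfc1* on the upstream side (−0.56, adjusted p = 5.76e-06) and *Itsn1* (−0.15, adjusted p = 0.00876) were also lower, and *Atp5o* was higher by 0.06 (adjusted p = 0.0319). *Son*, *Synj1*, *Dnajc28* and *1110004E09Rik* did not pass, with values between −0.09 and 0.11. The libraries were unstranded, so genes that overlap on opposite strands, such as *Son* and *Donson*, cannot be separated in full.

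**Figure D5:**
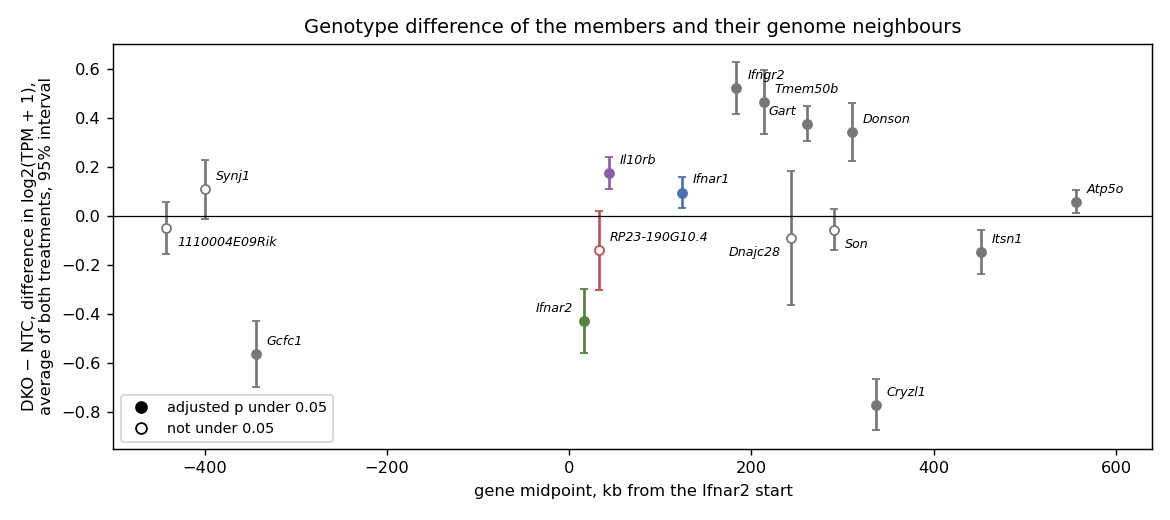
Difference between DKO and NTC in log2(TPM + 1), averaged over both treatments with its 95% confidence interval, for the 4 members (coloured) and the 12 tested neighbours (grey), against the distance of the gene's midpoint from the *Ifnar2* start in kb; filled points passed the 0.05 threshold on adjusted p. Values run from −0.77 (*Cryzl1*) to 0.52 (*Ifngr2*). Of the genes that passed, all those from *Il10rb* to *Donson* are higher, as is *Atp5o*. *Gcfc1*, *Ifnar2*, *Cryzl1* and *Itsn1* are lower.

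Finally, promoters from RefSeq (GRCm38.p6, 250 bases before to 50 bases after a gene's start) were searched on both strands for the letters of the gamma-activated site, TTCNNNGAA, and of an interferon-stimulated response element core, GAAANN followed by GAAA. The site is shown because it is an element of many promoters that respond to IFNγ, and the motif is in capitals within these plus-strand windows.
Ifnar2, chr16:91372560-91372586: gccaaggccTTCCTGGAAgaagagagt
Ifnar1, chr16:91485201-91485227: gcgggggcgTTCACGGAAggggcgggg
The letters of the gamma-activated site occurred in 8.3% of 32851 promoters and in those of *Ifnar2* and *Ifnar1*, 2 genes that did not pass the threshold with IFNγ. The response element core occurred in 3.44% of promoters and in neither of these. A match of letters is a description of the window and not a bound site.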

How the data were processed

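RNA from 12 B16-F10 libraries in 4 groups of 3 was analysed. The authors made poly(A)-selected, unstranded TruSeq libraries, read them from both ends over 50 bp, mapped them with RSEM 1.2.4 calling Bowtie to a merged Ensembl, UCSC and MISO annotation (mm10), and passed unaligned reads to TopHat. The deposited values are TPM computed by the authors, although the table is named for counts. TPM keep no depth, so no count test was used. How libraries were scaled to each other is not given in the sources used here.

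Genes that reached 1 TPM in 3 or more libraries (11663 of 23022) were fitted as log2(TPM + 1) with limma 3.58.1 in R 4.3.3, with 1 mean per condition, a variance trend and Benjamini-Hochberg adjustment at 0.05. The fit was tested on simulated data. Groups were taken from the labels. The members, gene lists and comparisons were chosen with earlier results of these data known. The members, all list genes at 1 TPM or more that passed in a comparison, *Jak1*, *Tyk2*, *Ifngr2*, *Il10ra*, *Ifnlr1* and *Il22ra1*, and the 3 genes most like each member are named. Exons and junctions came from GENCODE M21, in which 22251 listed genes were found, and promoters from RefSeq. A gene of the pathway lists is not reported here. Neither *Il10rb* nor *Gm21970* had an entry there. Python 3.11.15, pandas 2.3.3 and matplotlib 3.10.9 were used.

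Alternatives were a pseudocount of 0.1, no filter, a replicate block, each library left out, only the 6 libraries of a comparison, median-ratio scaling, scaling each library to a common total, the unit added to *Ifnar2*, to *Il10rb* or to both, Spearman's rho for likeness and, chosen after seeing the data, removal of a trend with GC content and length (11563 genes).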

Additional observations from a re-analysis of the deposited data

Results flagged for a closer look

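The IFNγ response of *RP23-190G10.4* had mean differences of opposite sign in the genotypes. All 3 treated NTC libraries were above the untreated NTC mean of 2.24 TPM and all 3 treated DKO libraries were below the untreated DKO mean of 3.29 TPM. Treated and untreated DKO libraries overlapped, however, with 2 of 3 treated libraries above the lowest untreated one, and the mean difference in DKO cells was −0.23 (SE 0.106). The difference between the responses was −1.08 on the log2(TPM + 1) scale. The difference was not tested, since the unit was chosen on it. Recomputed on the same libraries, which adds no independent support, it ran from −1.37 with a pseudocount of 0.1 to −0.997 after a trend with GC content and length was removed.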

How the results depend on the processing

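Of 390 recomputed values of the tested member differences, 370 kept their direction or stayed uncalled and kept their side of the threshold, and 20 did not; the cause was not tested for those. With *Ifnar2*, *Il10rb* and *RP23-190G10.4* summed, the IFNγ difference in NTC was 0.15. The DKO against NTC difference was 0.0828 without IFNγ (adjusted p = 0.163) and −0.0596 with it (0.296), where *Il10rb* alone was above 0. On the average it was 0.0116 (0.777). Sums with the unit take in values on which it was chosen, so only the average is read as a test. With the unit added, *Ifnar2* in NTC was 0.27 with IFNγ, and *Il10rb* in treated DKO against NTC was 0.10; that *Il10rb* difference was 0.14 with only the 6 treated libraries. At the same total, *Ifnar1* in treated DKO against NTC was 0.14. Without 1 library each, the ranges were 0.13 to 0.16 for *Ifnar1* in untreated DKO against NTC, 0.11 to 0.16 for *Il10rb* in treated DKO against NTC, 0.13 to 0.30 for *Ifnar2* with IFNγ in NTC and 0.27 to 0.35 for the unit with IFNγ on the average. The lower *Ifnar2* in DKO kept its call in all 20 fits without IFNγ, all 20 with it and all 19 on the average, from −0.48 to −0.36 on the average. The sum of *Ifnar2* with *Il10rb* and the unit, given above, is not among these fits.

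Same-numbered libraries did not deviate together (r from −0.179 to 0.182 over 18 pairs, against −0.219 to 0.213 over 36 others), so the numbers were not taken as pairs; with the replicate block all 20 tested member differences kept their call (*Ifnar2* on the genotype average −0.43, adjusted p = 0.000151). Over all genes, calls with IFNγ in NTC numbered 1411, with a range of 317 (without treated NTC replicate 3) to 2023 (without treated DKO replicate 2). Calls with IFNγ on the average numbered 1194, with a range of 504 to 2283, and those on the difference in response 4, with a range of 0 to 10 (1340 at an unadjusted p under 0.05 by limma). By Spearman's rho, 0 of the 3 genes most like *Ifnar1*, 1 each for *Il10rb* and the unit, and 2 for *Ifnar2* were the same. TPM keep no depth, so what depth allows for the unit is unknown.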
